A study of Arabidopsis thaliana with 9 samples.

Results

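The nuclear genes for the light-harvesting antenna (LHCA and LHCB) were examined in FRc-grown Arabidopsis thaliana seedlings with different spatial patterns of phytochrome inactivation. The family was taken as the LHCA and LHCB genes for which a probe set of the ATH1 array could be named, which gave 9 genes of 22746 non-control probe sets. LHCB4.1, LHCB4.2 and LHCB4.3 were named by the annotation of the array platform whatever their values. The remaining 6 (LHCA1, LHCA3, Lhca6, LHCB2.3, LHCB3 and LHCB6) were named only through the list of genes that the study selected on these arrays, which asked for a difference of at least 2-fold between the pBVR lines and for a difference among the 3 lines. LHCB4.2 is also in that list. An antenna gene below the 2-fold limit could therefore enter only through the platform annotation, and 12 further antenna genes, among them LHCA2, LHCA4, the LHCB1 genes and LHCB5, had no probe set named for 1 gene in the tables used and were not analysed here.

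Antenna proteins are encoded in the nucleus, imported into the chloroplast and inserted into the thylakoid membrane, where they bind chlorophylls a and b and xanthophylls. LHCA proteins form a belt around photosystem I, whereas photosystem II is served by mobile LHCB trimers and by monomeric linker proteins, the minor antenna, which connect the trimers to the core. Antenna genes are classical targets of phytochrome signalling: light perceived by phytochromes raises their transcripts in greening cotyledons, with phytochrome A as the sensor of continuous far-red light.

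The design holds 3 lines in the No-0 background with 3 arrays each. No-0 WT carries no transgene, 35S::pBVR3 expresses a plastid-targeted biliverdin reductase (pBVR), which degrades the chromophore of phytochromes, under the constitutive cauliflower mosaic virus 35S promoter, and CAB3::pBVR2 expresses the same enzyme under the promoter of CAB3, which is active in mesophyll. All seedlings, the wild type included, received a red-light pulse of 5 min, were stratified for 3 d at 4 °C, grew for 7 d in continuous far-red light (FRc) and were harvested whole. Each transgenic genotype is represented by 1 line, so line and construct cannot be told apart. CAB3 is itself an antenna gene (LHCB1.2), and neither its transcript nor that of the transgene was analysed here, so the labelled genotypes were not checked on a targeted gene. The labels number the 3 RNA extractions of a line as replicates without saying how far the seedlings were grown separately, and p-values measure the spread between these extractions.

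Signals are deposited MAS5 intensities brought to a common 75th percentile. Of all probe sets, 15436 were bright enough to be tested with limma, with p-values adjusted over all of them by the Benjamini-Hochberg method and a threshold of 0.05, and all 9 antenna genes were among them. Arrays of a line correlated at 0.948 to 0.968 across probe sets. The highest bacterial control probe set of an array, which has no target in the RNA, read 25.4 to 49.6 in the deposited intensities, and the lowest antenna signal lay 4.49-fold (LHCB4.3) to 201-fold (LHCB4.1) above the highest such control.

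Transcripts of most of the family were highest in No-0 WT, lower in 35S::pBVR3 and lowest in CAB3::pBVR2. The mean signals of all 9 genes had this order, but the size of the step differed, and LHCB4.3 did not differ beyond its spread in any comparison. The 6 genes named only through the study's list were chosen for a difference between the pBVR lines. For them the step from 35S::pBVR3 to CAB3::pBVR2 in this order is a description. In CAB3::pBVR2, 8 of 9 genes were called lower than in No-0 WT, beside 20.2% of all tested probe sets, and 8 were at least 2-fold lower, beside 11.5%. In 35S::pBVR3, 3 of 9 were called lower than in No-0 WT, beside 5.29% of all tested probe sets, and 0 were at least 2-fold lower, beside 1.71%. In no comparison was an antenna gene called higher, where 4.25% of tested probe sets (35S::pBVR3 against No-0 WT), 16.7% (CAB3::pBVR2 against No-0 WT) and 1.74% (CAB3::pBVR2 against 35S::pBVR3) were. The last of these is the contrast on which the study's list was selected. The list through which 6 of the genes were named required a difference among all 3 lines, so their p-values against No-0 WT are not independent of that choice, whereas those of the 3 LHCB4 genes are free of it: among these, 2 of 3 were called lower in CAB3::pBVR2 and 0 of 3 in 35S::pBVR3.

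**Figure D1:**
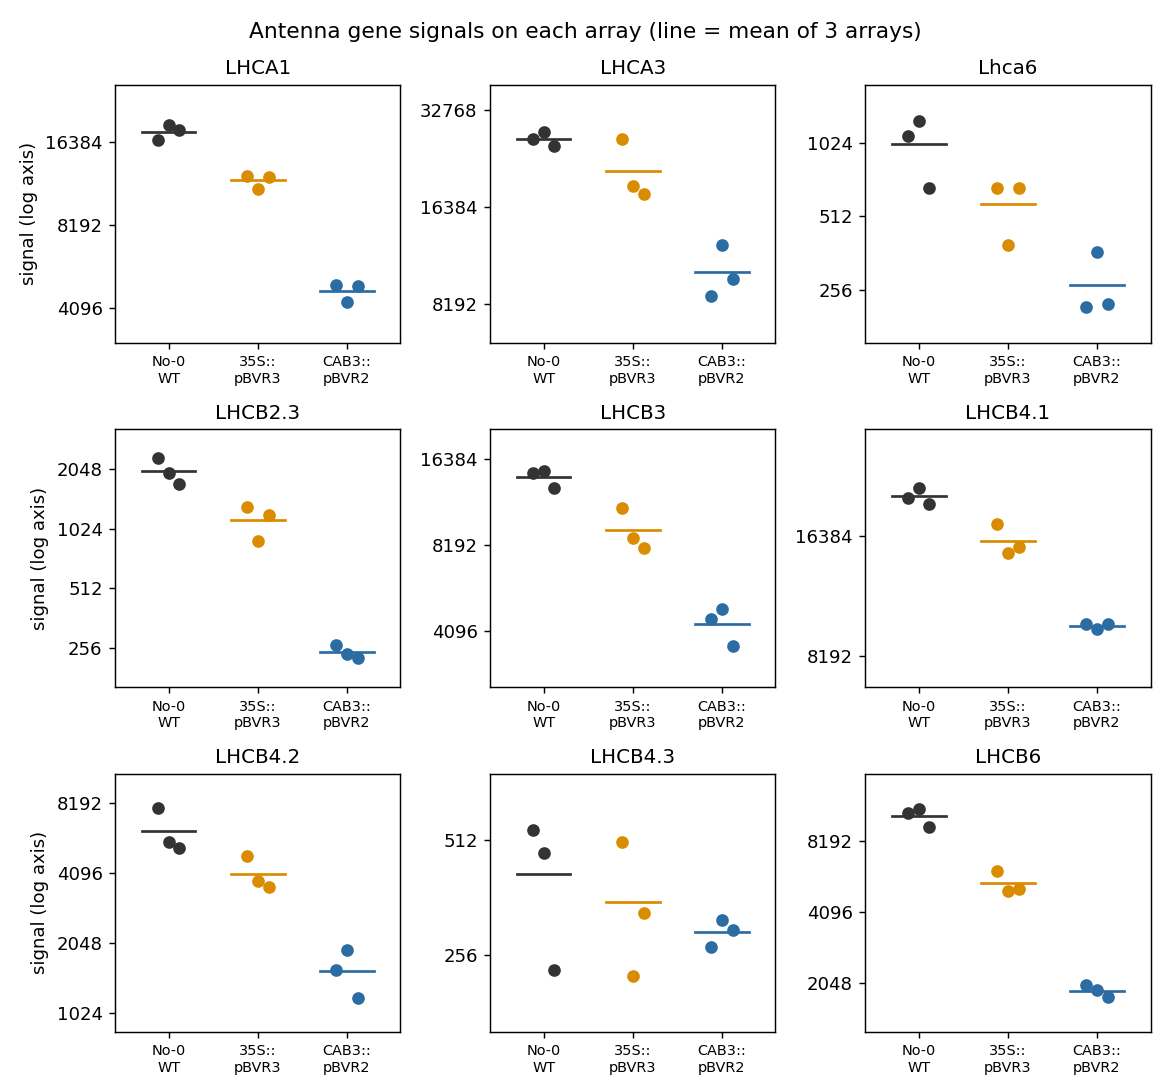
Signal of each antenna gene (log axis) on each of the 9 arrays by line, with points for single arrays from left to right by replicate number and horizontal lines for the mean of 3 arrays. The CAB3::pBVR2 arrays lie below all No-0 WT arrays in every panel but that of LHCB4.3, whose CAB3::pBVR2 signals of 269 to 317 fall within the range of the other lines.

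The photosystem I antenna was represented by LHCA1 and LHCA3, which belong to the belt of the core complex, and Lhca6, which joins photosystem I to the chloroplast NDH complex. LHCA1 (AT3G54890) gave signals of 16665, 18898 and 18204 in No-0 WT, 12410, 11080 and 12251 in 35S::pBVR3 and 4959, 4302 and 4949 in CAB3::pBVR2. The 3 lines did not overlap. LHCA1 was lower in CAB3::pBVR2 than in No-0 WT by 3.79-fold (a log2 change of −1.92, SE 0.14, limma adjusted p = 2.41e-05) and in 35S::pBVR3 by 1.5-fold (−0.59 ± 0.14, adjusted p = 0.0331). The latter call was lost in 11 of 18 other settings (adjusted p from 0.0179 to 0.209, the highest with quantile normalization), among them leaving out any of the 6 arrays of these lines (0.066 to 0.111). With quantile normalization the LHCA1 change in CAB3::pBVR2 against No-0 WT was −1.42 (adjusted p = 0.000198).

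LHCA3 (AT1G61520) was among the brightest probe sets of the arrays. Its signals were 26658, 27982 and 25309 in No-0 WT, 26551, 19052 and 17955 in 35S::pBVR3, and 8658, 12444 and 9778 in CAB3::pBVR2. Replicate 1 of 35S::pBVR3 lay within the wild-type range, and all CAB3::pBVR2 arrays lay below the other lines. The gene was lower in CAB3::pBVR2 than in No-0 WT by 2.62-fold (−1.39 ± 0.20, adjusted p = 0.000694), whereas 35S::pBVR3 did not pass the test against No-0 WT (−0.35 ± 0.20, adjusted p = 0.294). LHCA3 ranked 4 to 13 among probe sets, at 76.3% to 94.4% of the highest signal of the array, in No-0 WT and 35S::pBVR3, and 39 to 178 in CAB3::pBVR2. With quantile normalization its change in CAB3::pBVR2 was −0.82 (adjusted p = 0.0063), and the part of the brightness in the result was not tested.

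Lhca6 (AT1G19150) varied more between arrays of a line. It read 1099, 1269 and 670 in No-0 WT, 670, 390 and 669 in 35S::pBVR3 and 217, 365 and 224 in CAB3::pBVR2. The lowest wild-type array met the highest 35S::pBVR3 array, and the CAB3::pBVR2 arrays lay below both lines. Its signal was 3.75-fold lower in CAB3::pBVR2 than in No-0 WT (−1.91 ± 0.32, adjusted p = 0.00175), with an interval of −2.63 to −1.18, and the change in 35S::pBVR3 (−0.81 ± 0.32, adjusted p = 0.146) did not pass.

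The trimeric antenna of photosystem II was represented by LHCB2.3, a member of the LHCB2 group whose proteins are phosphorylated in state transitions, and LHCB3, a constituent of mixed trimers. LHCB2.3 (AT3G27690) had signals of 2319, 1955 and 1726 in No-0 WT, 1311, 882 and 1198 in 35S::pBVR3 and 264, 239 and 226 in CAB3::pBVR2. The 3 lines did not overlap, and all CAB3::pBVR2 arrays lay far below the other lines, within a narrow band. LHCB2.3 had the largest fall of the 9 genes in CAB3::pBVR2, 8.18-fold against No-0 WT (−3.03 ± 0.19, adjusted p = 1.43e-05), and 0.486% of tested probe sets changed further downward. In 35S::pBVR3 it fell 1.78-fold (−0.83 ± 0.19, adjusted p = 0.0304), a call that was lost in 8 of 18 other settings (adjusted p from 0.0147 to 0.089), among them leaving out No-0 WT replicate 1 (0.0889) or 2 (0.089) and 35S::pBVR3 replicate 2 (0.0755) or 3 (0.0688). The LHCB2 genes are close copies of each other, and hybridization of their transcripts to this probe set was not examined.

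LHCB3 (AT5G54270) read 14671, 14863 and 12982 in No-0 WT, 11028, 8663 and 8009 in 35S::pBVR3 and 4510, 4868 and 3627 in CAB3::pBVR2, again without overlap. It was 3.29-fold lower in CAB3::pBVR2 than in No-0 WT (−1.72 ± 0.18, adjusted p = 0.000124). In 35S::pBVR3 its signal was 1.55-fold below No-0 WT (−0.63 ± 0.18), which just missed the threshold (adjusted p = 0.0571) and passed it with the replicate number as a block (adjusted p = 0.0282).

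Of the minor antenna, LHCB6 (CP24), which links the outer trimers to the photosystem II core, changed most. LHCB6 (AT1G15820) had signals of 10713, 11167 and 9350 in No-0 WT, 6109, 5004 and 5125 in 35S::pBVR3 and 2010, 1920 and 1793 in CAB3::pBVR2. The 3 lines were well separated. LHCB6 was lower than in No-0 WT by 5.45-fold in CAB3::pBVR2 (−2.45 ± 0.15, adjusted p = 1.43e-05) and by 1.93-fold in 35S::pBVR3 (−0.95 ± 0.15, adjusted p = 0.011), and of the 3 calls in 35S::pBVR3 it was the one that passed in 18 of 18 other settings (adjusted p from 0.00423 to 0.0474).

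The LHCB4 genes encode isoforms of CP29, the linker next to the core. Since they were named irrespective of their values they could be tested in all comparisons, although the family and the tests were chosen with earlier results known. LHCB4.1 (AT5G01530) read 20336, 21593 and 19734 in No-0 WT, 17520, 14875 and 15333 in 35S::pBVR3 and 9840, 9593 and 9843 in CAB3::pBVR2. LHCB4.2 (AT3G08940) read 7830, 5562 and 5255, then 4851, 3777 and 3569, then 1565, 1910 and 1193 in the same order of lines. Neither gene overlapped between lines.

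LHCB4.1 was 2.1-fold lower in CAB3::pBVR2 than in No-0 WT (−1.07 ± 0.13, adjusted p = 0.00033) and 1.63-fold lower than in 35S::pBVR3 (−0.70 ± 0.13, adjusted p = 0.0126). With quantile normalization these changes were −0.51 (adjusted p = 0.0164) and −0.39 (adjusted p = 0.115), and without 35S::pBVR3 replicate 1 the latter call was also lost (adjusted p = 0.0509). LHCB4.2 was 4.00-fold lower in CAB3::pBVR2 than in No-0 WT (−2 ± 0.23, adjusted p = 0.000221) and 2.64-fold lower than in 35S::pBVR3 (−1.40 ± 0.23, adjusted p = 0.00635). In 35S::pBVR3 against No-0 WT neither LHCB4.1 (−0.37 ± 0.13, adjusted p = 0.112) nor LHCB4.2 (−0.60 ± 0.23, adjusted p = 0.134) passed.

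LHCB4.3 (AT2G40100), the isoform that differs most from the others in sequence and is also known as LHCB8, stood apart. It read 547, 475 and 234 in No-0 WT, 506, 225 and 329 in 35S::pBVR3 and 269, 317 and 297 in CAB3::pBVR2. Replicate 3 of No-0 WT and replicate 2 of 35S::pBVR3 were below every CAB3::pBVR2 array, so all lines overlapped. The changes were −0.42 ± 0.36 in CAB3::pBVR2 (adjusted p = 0.387, interval −1.23 to 0.39) and −0.23 ± 0.36 in 35S::pBVR3 (adjusted p = 0.729) against No-0 WT and −0.19 ± 0.36 between the pBVR lines (adjusted p = 0.806, interval −1 to 0.62). The change in CAB3::pBVR2 against No-0 WT was −0.18 without No-0 WT replicate 1 (adjusted p = 0.748), −0.29 without replicate 2 (adjusted p = 0.643) and −0.80 without replicate 3 (adjusted p = 0.0839). The intervals of all 3 comparisons include no change as well as a fall of about 2-fold. That of CAB3::pBVR2 against No-0 WT also includes the LHCB4.1 change of −1.07. The sign turned for 35S::pBVR3 against No-0 WT without No-0 WT replicate 1 (0.01) or 35S::pBVR3 replicate 2 (0.05), and between the pBVR lines without 35S::pBVR3 replicate 1 (0.11).

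**Figure D2:**
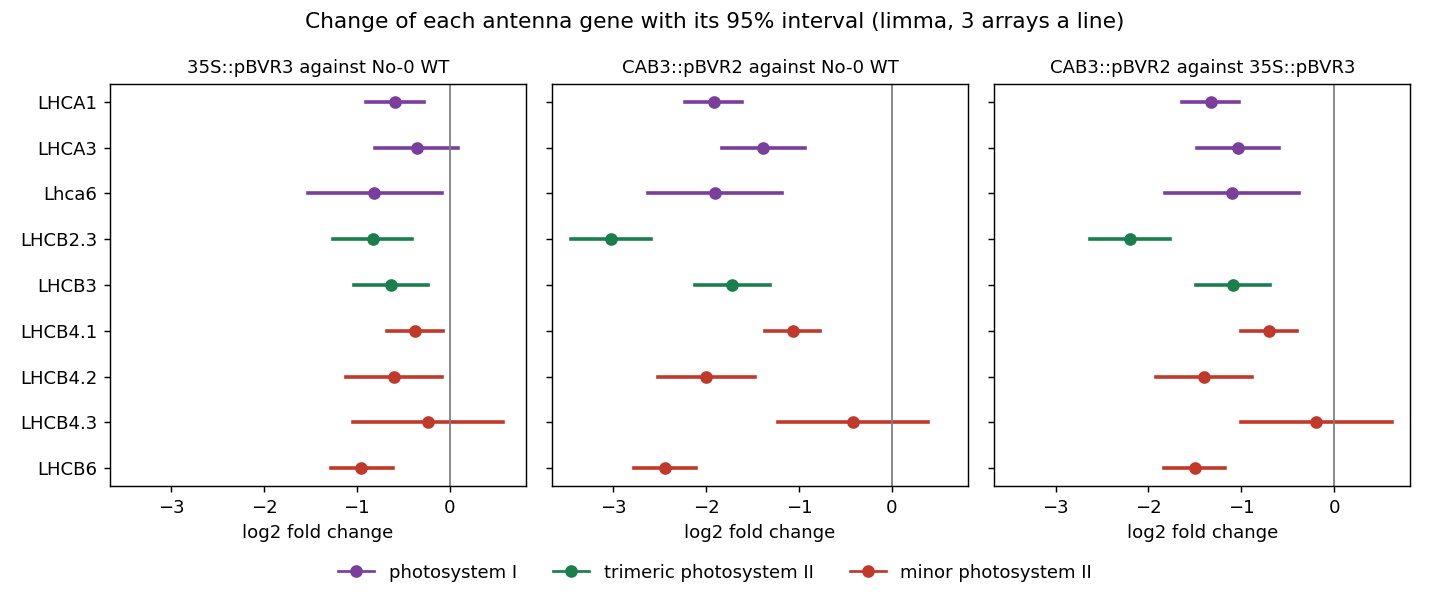
Log2 fold change of each antenna gene (points) with its 95% interval (bars, limma, 3 arrays a line) in the 3 comparisons, coloured by antenna class. The points for CAB3::pBVR2 against No-0 WT run from −3.03 for LHCB2.3 to −0.42 for LHCB4.3, and the interval of LHCB4.3 crosses 0 in all panels. For the 6 genes named only through the study's list the panel of CAB3::pBVR2 against 35S::pBVR3 is a description.

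The 3 CP29 genes were compared directly in how far they changed, array by array. Against No-0 WT, the change of LHCB4.2 in CAB3::pBVR2 lay at −0.93 relative to that of LHCB4.1 on the log2 scale, and LHCB4.3 changed less than LHCB4.1 by 0.65 and less than LHCB4.2 by 1.58. In each of these comparisons the within-array differences of the lines did not overlap (exact two-sided permutation test, p = 0.1, the smallest that 3 against 3 arrays allow, and 0.18 adjusted over the 9 comparisons made). The gap between LHCB4.3 and LHCB4.1 depended on the scaling, since their changes were −0.45 and −0.51 with quantile normalization, whereas that of LHCB4.2 was −1.74. It also depended on single wild-type arrays: the changes of LHCB4.3 and LHCB4.1 were −0.18 and −1.08 without No-0 WT replicate 1 and −0.80 and −1.10 without No-0 WT replicate 3. Between the pBVR lines the within-array differences of this pair overlapped (exact permutation p = 0.2). Those of the other pairs did not (exact permutation p = 0.1, 0.18 adjusted). There LHCB4.2 lay at −0.7 relative to LHCB4.1, and LHCB4.3 at 1.21 relative to LHCB4.2. In 35S::pBVR3 against No-0 WT no pair was separated (exact permutation p = 0.4 to 0.7).

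Between the pBVR lines, the contrast on which the study's list was selected, the values of the listed genes are a description. In CAB3::pBVR2, 7 of the 9 genes were at least 2-fold below 35S::pBVR3, as the list required of them, beside 4.53% of all tested probe sets. The arrays of these lines did not overlap for 8 genes, beside 15.9%. Among the LHCB4 genes, 2 of 3 were called lower by limma, beside 6.69%. LHCA3 (2.05-fold), LHCB3 (2.13-fold) and Lhca6 (2.14-fold) were just inside the 2-fold limit, and LHCB4.1 (1.63-fold) and LHCB4.3 (1.14-fold) were outside it. The log2 difference of LHCA3 was −1.04, and −0.66 with quantile normalization. LHCA1 was lower by 2.52-fold, LHCB6 by 2.83-fold and LHCB2.3 by 4.6-fold.

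By class, the median log2 fold change in CAB3::pBVR2 against No-0 WT was −1.91 for the 3 photosystem I genes (range −1.92 to −1.39), −2.37 for the trimeric photosystem II genes (−3.03 to −1.72, 2 genes) and −1.54 for the 4 minor antenna genes (−2.45 to −0.42). The median of all tested probe sets was 0.02. The ranges of the classes overlapped, and the class with the widest range, the minor antenna, held both LHCB6 and LHCB4.3. In 35S::pBVR3 the medians were −0.59, −0.73 and −0.49 in the same order, beside −0.03 for all tested probe sets. Averaged over its members on each array and set against the wild-type mean, the trimeric class lay at −2.28, −2.30 and −2.55 in CAB3::pBVR2, photosystem I at −1.88, −1.53 and −1.81 and the minor class at −1.49, −1.38 and −1.59. These averages rest on 2 to 4 genes chosen with results known and were not tested. All photosystem I and trimeric genes were named only through the study's list. Only the minor class held genes outside that list, LHCB4.1 (−1.07 in CAB3::pBVR2 against No-0 WT) and LHCB4.3 (−0.42). Its listed members, LHCB4.2 and LHCB6, lay within the range of the trimeric class in that comparison. Class and the way of naming therefore cannot be told apart.

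**Figure D3:**
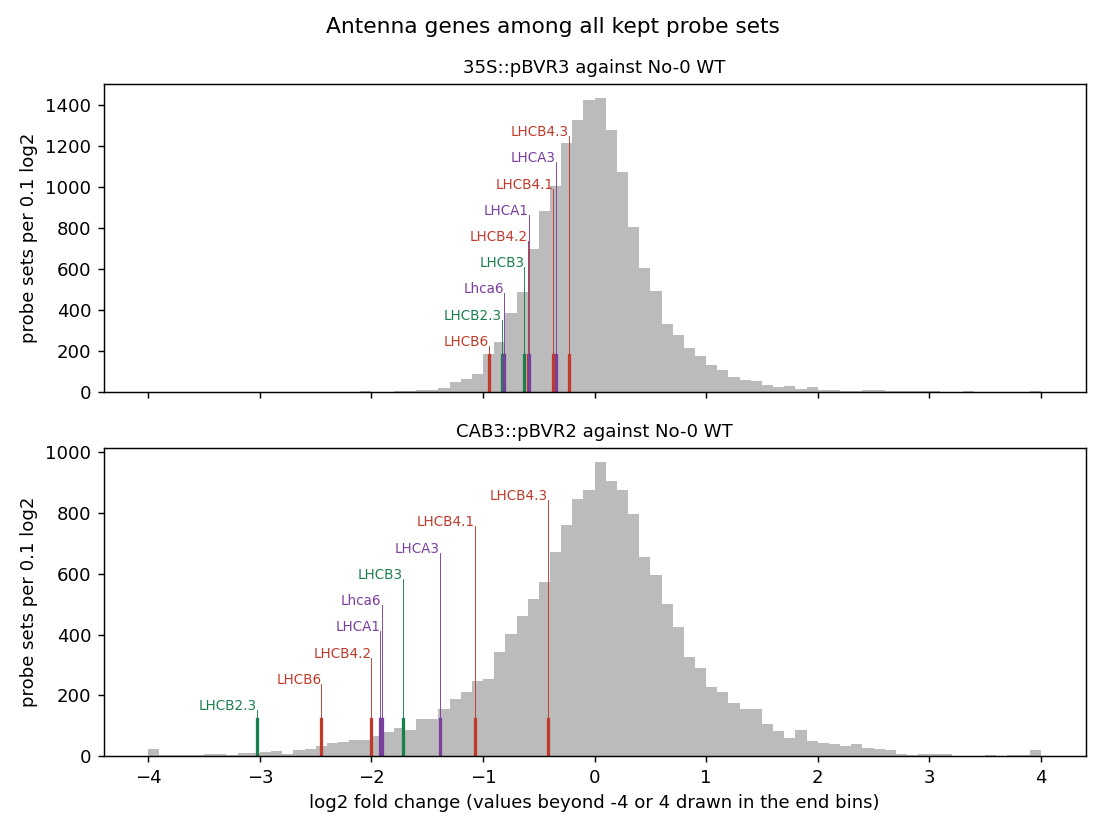
Histogram of the log2 fold changes of all 15436 tested probe sets (grey, number per bin of 0.1) for each pBVR line against No-0 WT, with the antenna genes as coloured lines by class. LHCB2.3 lies in the lowest 0.486% and LHCB4.3 at 27.1% of the distribution for CAB3::pBVR2, and in 35S::pBVR3 the genes run from 2.29% (LHCB6) to 32.1% (LHCB4.3).

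The antenna genes did not overlap between arrays of CAB3::pBVR2 and No-0 WT in 8 of 9 cases, beside 25.8% of tested probe sets that were lower without overlap, and between 35S::pBVR3 and No-0 WT in 7 of 9, beside 19.1%. The 7 include Lhca6, whose lines touched at log2 signals of 9.388 and 9.387 and overlapped in the deposited intensities before the shift (655.6 in No-0 WT replicate 3 against 656.8 and 677.2 in 35S::pBVR3 replicates 1 and 3). Set against the full log2 distance from No-0 WT to CAB3::pBVR2, the mean step in 35S::pBVR3 came to 25.4% for LHCA3, 27.4% for LHCB2.3, 30.1% for LHCB4.2, 30.7% for LHCA1, 34.7% for LHCB4.1, 36.6% for LHCB3, 38.6% for LHCB6 and 42.3% for Lhca6. Only LHCA1, LHCB2.3 and LHCB6 were called lower in 35S::pBVR3, so the other shares rest on steps that did not pass. The interval of the LHCA3 step, −0.8 to 0.09, includes no step. Leaving out single arrays moved these shares to between 17.6% and 37.9% for LHCA3, between 28.7% and 49.5% for Lhca6 and between 36.5% and 42.3% for LHCB6, so that the order of the genes is not resolved. For LHCB4.3 the share was not determined (−12.9% to 126% without single arrays). Both distances use the same wild-type arrays. The genes named only through the study's list were chosen on a large step between the pBVR lines, which favours a low share. LHCB4.1 and LHCB4.2, named irrespective of their values, are free of this choice, but their steps in 35S::pBVR3 did not pass. With quantile normalization the changes of LHCB4.1 were −0.12 in 35S::pBVR3 and −0.51 in CAB3::pBVR2, and those of LHCB4.2 were −0.44 and −1.74. The shares were not computed in that scaling.

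Across the 9 arrays the signals of the 8 genes other than LHCB4.3 ran closely together, with Pearson correlations of 0.889 to 0.996 in 28 pairs, whereas LHCB4.3 correlated with them at 0.372 to 0.660. Since arrays form 3 lines, these values mainly carry the line means. Within lines, the deviations of the 8 genes from their line means correlated at −0.549 to 0.854 (median 0.575), and LHCB4.3 followed the others there with 0.0804 to 0.826 (median 0.670). LHCB4.3 lay farthest below its line mean on No-0 WT replicate 3 (−0.75) and 35S::pBVR3 replicate 2 (−0.57), where Lhca6 deviated by −0.54 and −0.52 (log2). On CAB3::pBVR2 replicate 3, where Lhca6 deviated by −0.22, LHCB4.3 stood at 0.01. On 35S::pBVR3 replicate 1 all 9 genes lay above the mean of their line, by 0.06 (LHCA1) to 0.60 (LHCB4.3). Genes on an array share its RNA and its scaling, so they are not independent.

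**Figure D4:**
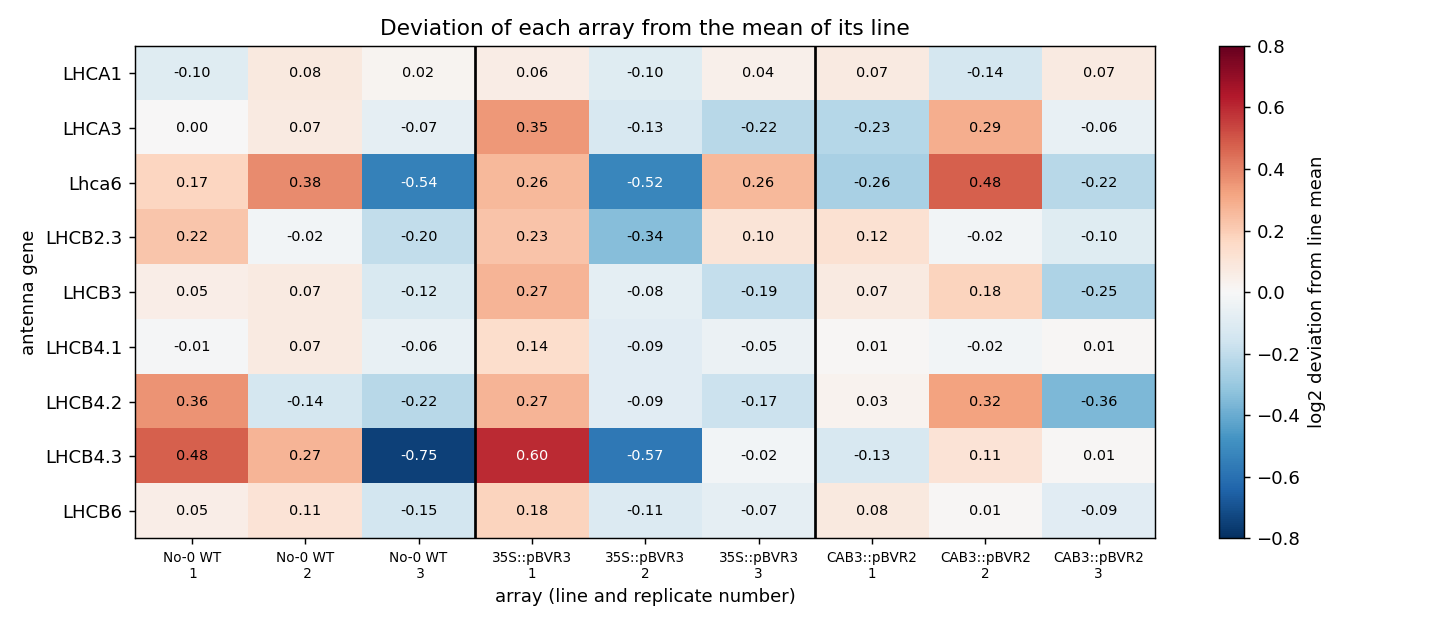
Log2 deviation of each antenna gene (vertical axis) on each array (horizontal axis, by line and replicate number) from the mean of its line, with red above and blue below. The darkest cells are those of LHCB4.3 on No-0 WT replicate 3 (−0.75), 35S::pBVR3 replicate 1 (0.60) and 35S::pBVR3 replicate 2 (−0.57), and LHCB4.1 stays within −0.09 to 0.14.

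Genes that act around the antenna were taken from lists of 51 other antenna, targeting, pigment and regulatory genes, of which 4 had a probe set named for 1 gene. These 4 were LIL3:1 and LIL3:2, antenna-like proteins that hold enzymes of chlorophyll synthesis at the membrane, NOL, a subunit of chlorophyll b reductase, and HYH, a bZIP factor related to HY5. In CAB3::pBVR2 against No-0 WT, 4 of 4 were called lower, beside 20.2% of all tested probe sets. LIL3:1 went from 2782 ± 258 (mean ± SD, n = 3) to 837 ± 288 (−1.80 ± 0.26 SE, adjusted p = 0.000732) and LIL3:2 from 7549 ± 1105 to 2709 ± 310 (−1.47 ± 0.17, adjusted p = 0.000221). NOL went from 498 ± 90.4 to 265 ± 51.1 (−0.91 ± 0.21, adjusted p = 0.00798) and HYH from 460 ± 83.5 to 160 ± 73.8 (−1.59 ± 0.31, adjusted p = 0.00383).

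In 35S::pBVR3 against No-0 WT, 0 of these 4 genes passed (adjusted p from 0.0513 to 0.265), with LIL3:1 at 1442 ± 124 and HYH at 238 ± 55.7. With the replicate number as a block LIL3:1 (adjusted p = 0.0471) and HYH (adjusted p = 0.0281) passed, and the share of all probe sets called lower rose from 5.29% to 8.57%. Between the pBVR lines, where 6.69% of all tested probe sets were called lower, LIL3:2 passed (5324 ± 587 against 2709 ± 310, −0.98 ± 0.17, adjusted p = 0.00841).

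RNA came from whole seedlings, in which fewer cells of a type and less RNA per cell cannot be told apart. Among marker genes of the tissues a seedling holds, 4 of 25 were measured. RCA, Rubisco activase of photosynthetic cells and 1 of 4 mesophyll markers, moved with the antenna: its range was 20474 to 22826 in No-0 WT, 12791 to 19953 in 35S::pBVR3 and 6727 to 8360 in CAB3::pBVR2 (−1.52 ± 0.20 in CAB3::pBVR2 against No-0 WT, adjusted p = 0.000402). FAMA, a regulator of guard cell formation and 1 of 7 epidermal markers, ranged over 200 to 362, 109 to 135 and 56.7 to 141 in the same order (−1.79 ± 0.35, adjusted p = 0.00386). The root hair genes EXP7 (17.0 to 52.0 in No-0 WT and 30.8 to 91.6 in CAB3::pBVR2, adjusted p = 0.242) and PRX44 (138 to 194 and 123 to 361, adjusted p = 0.427) did not pass. Their log2 changes in CAB3::pBVR2 against No-0 WT were upward, 0.88 ± 0.55 for EXP7 and 0.63 ± 0.58 for PRX44. EXP7 lay close to the highest bacterial controls of the arrays (25.4 to 49.6 before the shift), so its test carries little weight. The vascular and seed storage lists had 0 measured members, and the part of tissue proportions in the antenna result was not tested.

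The genes outside the family whose 9 array values most resembled the mean of the antenna genes were AT4G36530 (Pearson r = 0.9951), AT3G50685 (0.9944), AT5G42070 (0.9942), AT3G53470 (0.9938) and AT5G47190 (0.9931), among 8412 candidates with 1 named gene. All 5 are in the study's list, and in CAB3::pBVR2 they changed by −1.54, −1.70, −2.64, −2.01 and −1.84 against No-0 WT. Most of the antenna genes were named through the same list, so their presence in it and these falls are partly built in. LHCB4.3 itself correlated with the mean of the family at 0.547, below each of the other 8 antenna genes (0.958 to 0.990). Each gene is part of the mean with which it was correlated, which raises these values.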

How the data were processed

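RNA of 7-d-old whole seedlings had been amplified, labelled and hybridized to 9 ATH1 arrays, 1 for each RNA extraction. The authors deposited linear probe set intensity values from MAS5 (version and target value not given in the sources used here), and no comparison columns or detection calls were used. The 64 control probe sets were left out of the tests, and 3 zero values were raised to 0.1, the lowest value above 0. Log2 values were shifted by the 75th percentile of each array, as in the methods of the study, and a probe set was kept where at least 1 array reached its own 40th percentile, a replacement for the study's filter on flags (15436 of 22746 kept). The median deposited signal of the arrays ran from 139.4 to 184.3.

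All 9 arrays were fitted with limma 3.58.1 in R 4.3.3 (lmFit and eBayes, prior degrees of freedom 3.23), and Benjamini-Hochberg adjustment ran over the 15436 probe sets. The code was tested on simulated data first. Signals are arithmetic means after the shift, and log2 fold changes compare the means of the logged values. The platform table gave 1 gene for 13513 probe sets, the study's list named 6 of the antenna genes, and gene symbols follow RefSeq. Members, gene lists and tests were chosen with earlier results of these data known. Named were all members, up to 4 measured genes of each list by mean signal, the 5 genes most like the family mean and the genes beside the 2-fold limit.

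Deviations from the line means were correlated between arrays that share a replicate number in all 9 pairs (r = 0.207 to 0.391) and not between the others (−0.263 to −0.0507, 18 pairs). Deviations cancel out within a line, so positive values for the former pairs push the latter down, and the latter add nothing of their own. The labels do not say what a number shares, so the pairing is taken from the data. The reported fit has no block, and the block was among 18 alternatives (9 that leave out an array and 9 other settings). Promoter and protein sequences were not used here.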

Additional observations from a re-analysis of the deposited data

How the results depend on the processing

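Of 486 values (9 antenna genes, 3 comparisons, 18 alternatives), 456 kept their direction and their side of the threshold, and 3 turned sign, all of LHCB4.3: without No-0 WT replicate 1 (0.01) or 35S::pBVR3 replicate 2 (0.05) for 35S::pBVR3 against No-0 WT, and without 35S::pBVR3 replicate 1 (0.11) between the pBVR lines. Without single arrays its values ran from −0.61 to 0.05 and from −0.48 to 0.11 in these comparisons, and from −0.80 to −0.18 for CAB3::pBVR2 against No-0 WT. The other filter settings, the floor, the replicate block, the fits of only the 2 lines compared and the separate variances left the log2 changes unchanged. In these settings, and without an array of the line not compared, only the side of the threshold could move. All 8 calls of CAB3::pBVR2 against No-0 WT held in 18 of 18 alternatives. The calls of 35S::pBVR3 were less firm. The number of antenna genes called there was 3 in the reported fit and 1 with no filter, with the filter on bacterial controls and with only the 2 lines compared, and 1 to 3 without single arrays. The corresponding count of all probe sets called lower was 817, against 125 with no filter, 346 with the filter on bacterial controls, 1323 with the replicate block and 114 to 736 without single arrays, where No-0 WT replicate 2 gave the lowest. The reasons were not tested.

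Between the pBVR lines, the count of all probe sets lower in CAB3::pBVR2 was 1033, against 619 with no filter, 1137 with the stricter filter, 1379 with the replicate block and 658 to 927 without single arrays, where 35S::pBVR3 replicate 1 gave the lowest. With quantile normalization LHCA3 (−0.66, adjusted p = 0.051) and LHCB4.1 (−0.39, adjusted p = 0.115) missed the threshold in this comparison. The 4 partner genes gave 0 calls in 35S::pBVR3 against No-0 WT, 1 with the stricter filter, with a floor of 32 and with only the 2 lines compared, 2 with the replicate block and 0 to 1 without single arrays, and 2 in place of 1 between the pBVR lines with the stricter filter. With the block LHCB3 also passed in 35S::pBVR3 (adjusted p = 0.0282), and no other call of an antenna gene changed. LHCB3 passed there with the stricter filter as well (0.0331), and LHCB4.1 with the variance of each probe set alone (0.0348).

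With quantile normalization the class medians against No-0 WT were −0.34 for photosystem I in 35S::pBVR3, and −1.42 for photosystem I, −2.11 for the trimeric and −1.12 for the minor class in CAB3::pBVR2. Of single genes in CAB3::pBVR2 against No-0 WT, LHCA1 then stood at −1.42, LHCB3 at −1.22 and LHCB6 at −2.12. Lhca6 (−1.92) and LHCB2.3 (−3.00) stayed near their reported values. The photosystem I median between the pBVR lines ran from −1.36 to −0.97 without single arrays, the former without 35S::pBVR3 replicate 2. The deposited scaling with no shift moved the median of all probe sets to 0.17 in CAB3::pBVR2 against No-0 WT and to 0.11 between the pBVR lines. The share of calls that were lower then went from 54.6% to 41.6% and from 79.4% to 68.0%, and from 55.5% to 42.5% for 35S::pBVR3 against No-0 WT, where LHCA1 also lost its call (adjusted p = 0.0521). The precision is limited by 3 arrays a line, and most for LHCB4.3 and Lhca6, which varied most within lines.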
